A study of Mus musculus with 35 samples.

Results

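The genes described are a set of 10 antioxidant and metal-binding genes: the metallothioneins Mt1 and Mt2, the enzymes Hmox1, Srxn1, Nqo1 and Txnrd1, the glutathione synthesis genes Gclc and Gclm, and the constitutive enzymes Sod1 and Cat. They were chosen by gene symbol, through the probe sets that the array annotation assigns to them, and 23 of the 45101 probe sets name one of these 10 genes among the 18193 genes with a probe set of their own. All 10 genes passed the filter on dim signals.

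Expression was measured on Affymetrix arrays in whole kidneys of FVB/NJ mice. The diabetic animals were of the OVE26 line and were compared with control mice at 2 months (6 diabetic and 6 control arrays), 4 months (7 diabetic and 4 control arrays) and 8 months (6 diabetic and 6 control arrays). OVE26 mice carry a calmodulin transgene expressed in pancreatic beta cells and lack insulin from early life, so the transgene acts outside the kidney and the line models insulin-deficient diabetes. The labels name the controls only as control mice, do not give the sex or the time of day of collection, and do not say how many animals gave RNA to an array, so the p-values measure the spread between these arrays.

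The transcription factor NRF2 (gene Nfe2l2) is held low by KEAP1, which passes it to degradation. Oxidants and electrophiles release it, and it then binds antioxidant response elements with small MAF proteins to raise detoxifying enzymes such as NQO1, sulfiredoxin and thioredoxin reductase. Metallothioneins are small cysteine-rich proteins that hold zinc and copper, and their genes answer to metals through the factor MTF1 at metal response elements and also to glucocorticoids. In the kidney metallothioneins are best known for binding zinc and cadmium in proximal tubule cells.

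The promoters of Mt1, Mt2 and Srxn1 are shown because these genes were called and their windows hold several copies of the elements that MTF1 and NRF2 bind. RefSeq windows on GRCm38.p6 that run from 250 bases before to 50 bases after the start were available for 8 of the 10 genes, all except Hmox1 and Gclc. Capitals mark the metal response core (TGCACNC or TGCGCNC, both strands) in the Mt1 and Mt2 windows and the antioxidant response core (TGACNNNGC or TGAGNNNGC, both strands) in the Srxn1 window.
Mt1, chr8:94178839-94179138, plus strand: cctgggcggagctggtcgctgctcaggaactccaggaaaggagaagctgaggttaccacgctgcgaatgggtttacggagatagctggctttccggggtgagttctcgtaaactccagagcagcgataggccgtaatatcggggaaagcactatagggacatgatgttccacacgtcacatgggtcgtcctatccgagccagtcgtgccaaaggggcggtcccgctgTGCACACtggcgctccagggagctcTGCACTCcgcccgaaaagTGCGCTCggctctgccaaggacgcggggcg
Mt2, chr8:94172368-94172667, plus strand: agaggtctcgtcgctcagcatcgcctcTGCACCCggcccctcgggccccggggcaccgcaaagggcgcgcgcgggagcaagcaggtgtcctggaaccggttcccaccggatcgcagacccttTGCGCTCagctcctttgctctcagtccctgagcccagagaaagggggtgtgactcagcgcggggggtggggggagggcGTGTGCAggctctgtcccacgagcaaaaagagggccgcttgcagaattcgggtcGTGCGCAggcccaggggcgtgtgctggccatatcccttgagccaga
Srxn1, chr2:152105274-152105573, plus strand: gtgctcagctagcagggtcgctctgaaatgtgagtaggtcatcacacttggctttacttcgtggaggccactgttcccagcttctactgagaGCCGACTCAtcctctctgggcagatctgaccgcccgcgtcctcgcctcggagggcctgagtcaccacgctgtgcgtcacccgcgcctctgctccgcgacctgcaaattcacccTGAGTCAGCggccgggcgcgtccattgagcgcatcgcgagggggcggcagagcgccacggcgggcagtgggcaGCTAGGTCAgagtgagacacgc

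The Mt1 window held 3 metal response cores and the Mt2 window 4, while 1.97% of all 32851 windows held 3 or more and 25.7% held at least 1. The Mt2 window also held 1 antioxidant response core, which overlaps none of the others. The Srxn1 window held 3 antioxidant response cores, a number reached by 0.63% of windows, where 27.8% held at least 1, and 1 metal response core, not in capitals. The Nqo1 window held 0 cores of either kind, and so did that of Cat. Gclm held 3 metal response cores and 1 antioxidant core, with an overlap between a pair of them, and Sod1 and 1 of the Txnrd1 windows held 1 antioxidant core each. The E-box CACGTG, the element of the clock factors, was in 7.15% of all windows and in none of those of the 8 genes. A match is a run of letters and was not tested for binding.

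The metallothioneins rose at 4 months, Hmox1, Srxn1, Nqo1 and Txnrd1 rose at 8 months, and Gclc, Gclm, Sod1 and Cat passed the test at no age. These are calls within each age, and of the 10 genes only Srxn1 was called in the test of the difference between ages given further on. At 2 months 0 of the 10 genes were called, where 2.54% of the 13004 genes tested were called (0.754% higher and 1.78% lower), and 3 of the 10 had an unadjusted p under 0.05, against 15.2% of all genes. At 4 months 2 of 10 were called, both higher, with a background of 0.969% called, 0.415% higher and 0.554% lower. At 8 months 4 of 10 were called, all higher, with a background of 16.8% called, 9.87% higher and 6.95% lower. The diabetic and control arrays did not overlap for 0 of 10 genes at 2 months, against 1.5% of all genes. Over the 10 genes the median difference, diabetic minus control on the log2 scale, stood at 0.045, 0.105 and 0.34 at 2, 4 and 8 months. Over all genes tested it was -0.0131, 0.0105 and -0.000362. One limma fit over all 35 arrays tested the 13004 genes, and a gene counts as called at a Benjamini-Hochberg adjusted p under 0.05. Differences below are log2, diabetic minus control, with the standard error of that fit.

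**Figure D1:**
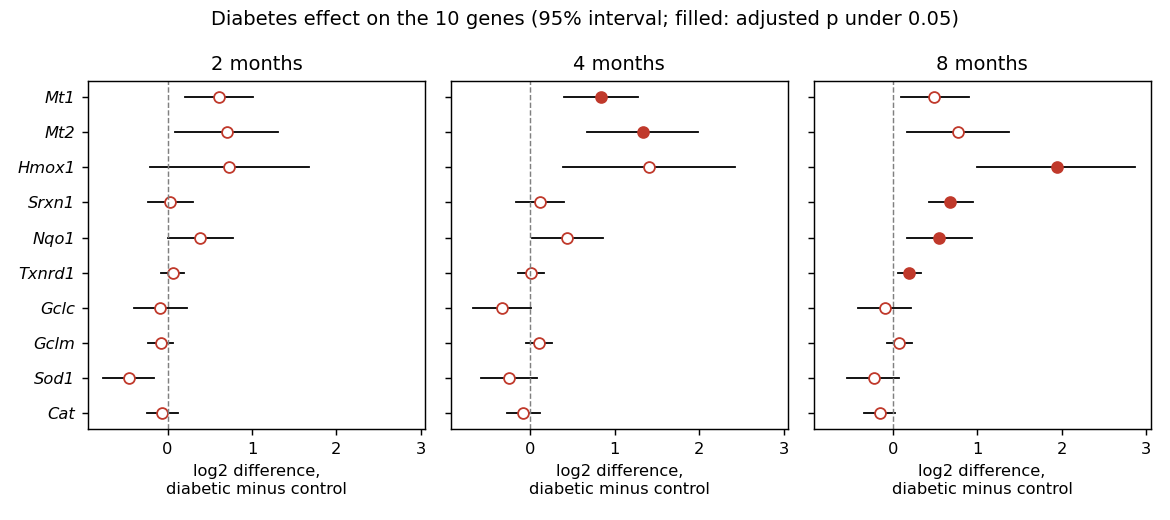
Log2 difference between diabetic and control kidneys for each of the 10 genes at 2, 4 and 8 months, with 95% intervals of the limma fit; filled points have an adjusted p under 0.05. Mt1 and Mt2 are filled at 4 months and Hmox1, Srxn1, Nqo1 and Txnrd1 at 8 months, while Gclc, Gclm, Sod1 and Cat are open in all 3 panels.

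Some arrays stood apart from the others of their age, and each result for the 10 genes that rests on them is given with and without them. At 2 months the arrays numbered 5 and 6 of both groups lay from 9.32 to 36.6 on the first principal component of all genes, and the other 8 from -14.1 to -7.18. Control 6, the farthest at 36.6, also stood apart in the log2 ratio of 3′ to 5′ control probe sets, a measure of RNA degradation and labelling, at 2.56 for actin and 0.99 for Gapdh. The other 2-month arrays had 0.81 to 1.35 for actin and -0.16 to 0.15 for Gapdh. At 4 months controls 3 and 4 lay at 18 and 18.6, and the others from -13.1 to 6.24. At 8 months diabetic array 3 lay at -39, the other diabetic arrays from -17 to -3 and the controls from 9.88 to 22.4. Without that array 12.6% of all genes were called at 8 months, against 16.8% with it. The circadian genes Arntl and Dbp, which run in opposite phase over the day, differed between arrays of an age as well. Controls 3 and 4 at 4 months had Arntl signals of 7.84 and 8.17 and Dbp signals of 8.75 and 8.02, where the other 9 arrays had Arntl at or below 6.21 and Dbp at or above 10.24. Pearson's r between arrays of an age was 0.969 or higher, and 0 pairs were identical.

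Mt2 rose 2.52-fold in diabetic kidneys at 4 months, and Mt1 rose 1.79-fold. Mt2 gave log2 signals from 11.78 to 12.72, with a median of 12.28, on the 7 diabetic arrays at 4 months, against 11.72, 11.14, 10.37 and 10.43 on the 4 control arrays. Each diabetic array was above every control array, and controls 3 and 4 were the lowest. The difference was 1.33 ± 0.32 (adjusted p = 0.031, limma). Mt1 gave 12.4 to 13.22, with a median of 12.91, on the diabetic arrays and 12.67, 12.05, 11.7 and 11.68 on the control arrays. Control 1 lay inside the diabetic range, so the groups overlapped. The difference for Mt1 was 0.84 ± 0.21 (adjusted p = 0.0462, limma).

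The 4-month calls rested on few arrays. Without controls 3 and 4, 0.0384% of all genes were called at that age, against 0.969% with all arrays. Without controls 3 and 4, the arrays with the shifted clock genes, the difference was 0.82 ± 0.40 for Mt2 and 0.51 ± 0.27 for Mt1, both with an adjusted p of 1. With Arntl minus Dbp as a covariate it was 0.91 ± 0.31 for Mt2 (adjusted p = 0.182) and 0.59 ± 0.21 for Mt1 (adjusted p = 0.214). The Mt2 call was also lost on leaving out any single one of diabetic arrays 1, 4, 5 and 7 and controls 2, 3 and 4 (adjusted p between 0.0515 and 0.223). The Mt1 call was lost without any single one of diabetic arrays 1, 3, 4, 5, 6 and 7 and controls 2, 3 and 4 (adjusted p between 0.0534 and 0.284). Both differences stayed positive in every one of these fits.

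At 2 months the metallothioneins divided the diabetic arrays. Mt2 read 13.16, 12.75, 13.31, 13.04, 11.64 and 10.78 on diabetic arrays 1 to 6, against 11.92, 12.15, 12.09, 11.52, 11.81 and 10.97 on controls 1 to 6. Diabetic arrays 1 to 4 were above every control, array 5 lay among the controls and array 6 was below all of them. The difference was 0.70 ± 0.30 (adjusted p = 0.237, limma). Mt1 had the same layout, with 13.31 to 13.68 on diabetic arrays 1 to 4, 12.73 and 12.05 on arrays 5 and 6, and 12.29 to 12.79 on the control arrays. Its difference was 0.61 ± 0.20 (adjusted p = 0.0957, limma).

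Without the 2-month arrays numbered 5 and 6 of both groups both genes were called higher, Mt1 at 0.93 ± 0.18 (adjusted p = 0.00401) and Mt2 at 1.14 ± 0.24 (adjusted p = 0.00623). Over those 4 arrays alone the differences were -0.03 ± 0.28 and -0.18 ± 0.38, and neither was called. With diabetic array 6 alone left out, Mt1 was 0.83 ± 0.17 (adjusted p = 0.00529) and Mt2 1.04 ± 0.25 (adjusted p = 0.024). With the replicate number as a block, Mt1 was called at 0.61 ± 0.16 (adjusted p = 0.0444), and Mt2 was not, at 0.70 ± 0.22 (adjusted p = 0.0859). The labels do not say that same-numbered arrays are pairs. Without control 6, the array with the high 3′ to 5′ ratios, Mt1 was 0.58 ± 0.21 (adjusted p = 0.122) and Mt2 0.55 ± 0.31 (adjusted p = 0.353). With arrays 5 and 6 as a batch term Mt1 was called (adjusted p = 0.0284) and Mt2 was not (adjusted p = 0.0677).

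At 8 months the spread was narrower. Mt2 ran from 11.55 to 12.12, with a median of 11.96, on the 6 diabetic arrays and from 10.78 to 11.65, with a median of 11.2, on the 6 control arrays. Mt1 ran from 12.66 to 13.32, with a median of 12.96, on the diabetic arrays and from 12.17 to 12.79, with a median of 12.54, on the control arrays. For both genes 5 of 6 diabetic arrays exceeded the highest control. The differences were 0.77 ± 0.30 for Mt2 (adjusted p = 0.0752) and 0.49 ± 0.20 for Mt1 (adjusted p = 0.0861), so neither was called in the limma fit over all ages. With the 8-month arrays fitted by themselves the adjusted p was 0.00353 for Mt2 and 0.013 for Mt1. With the clock covariate Mt2 was 1.00 ± 0.27 (adjusted p = 0.0087) and Mt1 0.63 ± 0.19 (adjusted p = 0.0176).

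**Figure D2:**
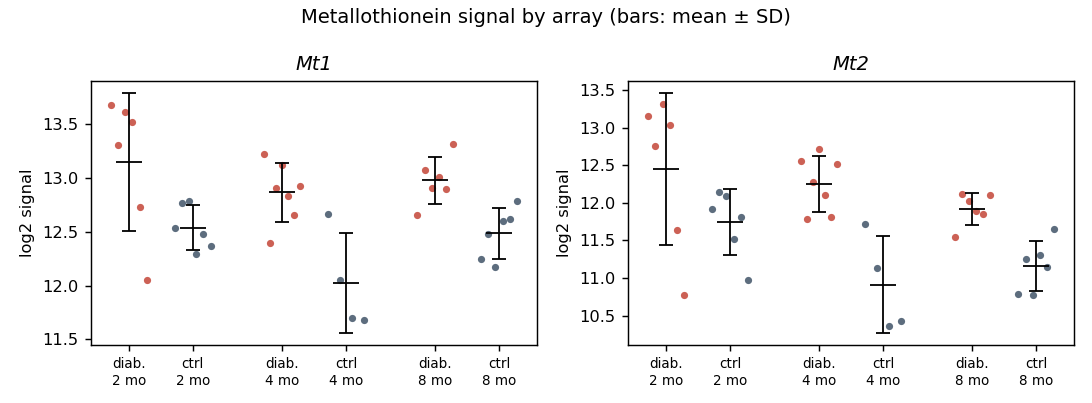
Log2 signal of Mt1 (left) and Mt2 (right) on each array, diabetic left of control at each age; points are arrays in order of their number and bars are the mean ± SD. Diabetic arrays 5 and 6 at 2 months sit at 11.64 and 10.78 for Mt2 while arrays 1 to 4 lie at or above 12.75, and controls 3 and 4 at 4 months are the lowest arrays of their age in both panels.

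Mt1 and Mt2 lie next to each other, with Mt3 and Mt4 before them in the RefSeq gene order. Their signals moved together from array to array: the deviations from the group means had a Pearson r of 0.949 and a Spearman rho of 0.932 over the 35 arrays, each with a permutation p of 1e-05, the smallest that the permutations could give. Without the 2 arrays farthest from the median of Mt1 r was 0.918 (rho 0.92), and within the ages r was 0.966, 0.953 and 0.891 at 2, 4 and 8 months (3 relations). The Mt1 probe set carries the suffix that marks a sequence shared between transcripts, and a signal shared between the genes was not tested. The dimmer Mt1 probe set, at a mean of 6.84, gave differences of 0.61 ± 0.27, 0.88 ± 0.29 and 0.62 ± 0.27 at 2, 4 and 8 months. None of them was called in the fit over all 34945 probe sets that name 1 gene.

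At 2 ages the arrays with the lowest Dbp signals also had low Mt2 signals, a relation that was not tested. At 2 months the 3 arrays with the lowest Dbp signals of 7.95, 8.26 and 8.87 (diabetic 6, diabetic 5 and control 6) had Mt2 signals of 10.78, 11.64 and 10.97, all among the 4 lowest of that age. Diabetic array 1, with Dbp at 9.29, had an Mt2 signal of 13.16, the next to highest. At 4 months the arrays with the lowest Dbp, controls 3 and 4, had the lowest Mt2. All these low-Dbp arrays also stood apart on the first principal component, and control 6 at 2 months had the high 3′ to 5′ ratios. The clock signal cannot be told apart from these other traits of the arrays. At 8 months diabetic arrays 1, 2 and 5 had Dbp at 8.25, 8.14 and 7.32 and Mt2 at 11.55, 12.12 and 11.85, above 5, 6 and 6 of the 6 controls. With Arntl minus Dbp as a covariate the 2-month difference was 0.74 ± 0.18 for Mt1, which was called (adjusted p = 0.0255, limma), and 0.92 ± 0.27 for Mt2, which was not (adjusted p = 0.0577).

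**Figure D3:**
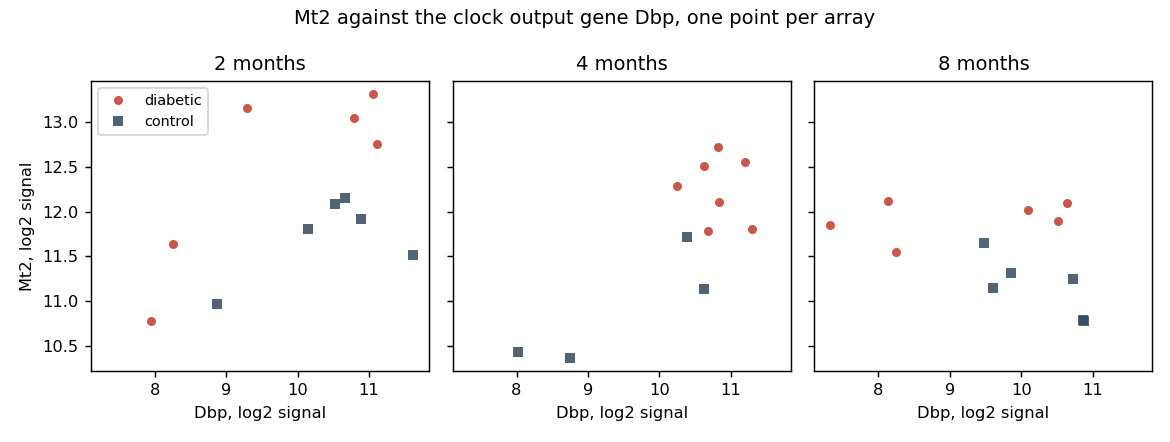
Log2 signal of Mt2 against that of the clock output gene Dbp, one point per array, in panels for 2, 4 and 8 months; circles are diabetic and squares control arrays. At 4 months controls 3 and 4 lie alone at the lower left (Dbp 8.75 and 8.02), while at 8 months the 3 diabetic arrays with Dbp at or below 8.25 have Mt2 signals between 11.55 and 12.12.

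Hmox1, the inducible heme oxygenase, had the largest difference among the 10 genes at 8 months, 3.83-fold. It ran from 8.39 to 11.4, with a median of 9.2, on the 6 diabetic arrays at 8 months and from 6.71 to 7.95, with a median of 7.75, on the 6 control arrays. The groups did not overlap, and diabetic array 6 was the highest. The difference was 1.94 ± 0.46 (adjusted p = 0.00285, limma), and it stayed called on leaving out each of the 12 arrays in turn, with the lowest value of 1.54 without diabetic array 6.

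At 4 months Hmox1 ran from 7.08 to 8.76, with a median of 8.32, on the 7 diabetic arrays, against 6.98, 6.38, 6.64 and 6.81 on the 4 control arrays. The groups did not overlap here either, and Mt2 and Hmox1 were the 2 of 10 genes without overlap at this age, against 4.81% of all genes. The difference of 1.41 ± 0.50 was not called in the fit over all ages (adjusted p = 0.208), which takes one spread per gene, and it was called with the 4-month arrays fitted by themselves (adjusted p = 0.0192). Without controls 3 and 4 it was 1.43 ± 0.66 (adjusted p = 1), in the fit that called 0.0384% of all genes at 4 months. At 2 months the arrays scattered widely, from 8.07 to 10.95 in diabetic kidneys (SD 1.27) and from 7.73 to 9.63 in control kidneys (SD 0.784), with a difference of 0.73 ± 0.46 (adjusted p = 0.48).

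Srxn1, the sulfiredoxin that restores over-oxidised peroxiredoxins, was higher at 8 months with the smallest p of the 10 genes. It ran from 9.27 to 10.15, with a median of 9.45, on the diabetic arrays and from 8.54 to 9.03, with a median of 8.88, on the control arrays. The groups did not overlap, and the difference was 0.68 ± 0.13, or 1.60-fold (adjusted p = 0.000285, limma). It was called on leaving out each of the 12 arrays, at 0.56 to 0.73. Of its 3 other probe sets 2 were called at 8 months in the fit over all probe sets, at 0.55 ± 0.13 (adjusted p = 0.00314) and 0.53 ± 0.10 (adjusted p = 0.000416), and the dimmest was not, at 0.13 ± 0.11 (adjusted p = 0.557). At 2 months Srxn1 averaged 8.83 on diabetic and 8.79 on control arrays, a difference of 0.03 with a 95% interval from -0.23 to 0.30. At 4 months the difference was 0.11 with an interval from -0.17 to 0.40.

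Nqo1, the quinone reductase often used as a readout of NRF2, rose 1.47-fold at 8 months. It ran from 9.03 to 9.64, with a median of 9.12, on the diabetic arrays and from 8.33 to 8.97, with a median of 8.68, on the control arrays, without overlap. The difference was 0.55 ± 0.19 (adjusted p = 0.0417, limma). It was positive at the other ages too, 0.38 ± 0.19 at 2 months (adjusted p = 0.336) and 0.44 ± 0.21 at 4 months (adjusted p = 0.413). Arrays 5 and 6 of each group had low Nqo1 signals at 2 months, 8.38 and 7.91 against 9.02 to 9.17 on the other diabetic arrays, and 8.07 and 7.77 against 8.29 to 9.08 on the other control arrays. Without them the difference was 0.46 ± 0.16 (adjusted p = 0.12), and over them alone 0.22 ± 0.23 (adjusted p = 0.612).

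Txnrd1, the cytosolic thioredoxin reductase, rose 1.14-fold at 8 months. It ran from 10.77 to 11.09, with a median of 10.9, on the diabetic arrays and from 10.59 to 10.9, with a median of 10.66, on the control arrays, with overlap (0.19 ± 0.07, adjusted p = 0.043, limma). Its 2 dimmer probe sets gave 0.29 ± 0.19 and 0.11 ± 0.12 at 8 months, not called.

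The Nqo1 and Txnrd1 calls at 8 months were close to the threshold. That for Nqo1 was lost on leaving out any single one of diabetic arrays 1, 3 and 5 and controls 2, 3, 4, 5 and 6 (adjusted p between 0.0503 and 0.114). That for Txnrd1 was lost without any single one of diabetic arrays 1, 5 and 6 and controls 1, 2, 3 and 4 (adjusted p between 0.0745 and 0.131). Hmox1, Srxn1 and Nqo1 were 3 of 10 genes without overlap at 8 months, against 9.7% of all genes.

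**Figure D4:**
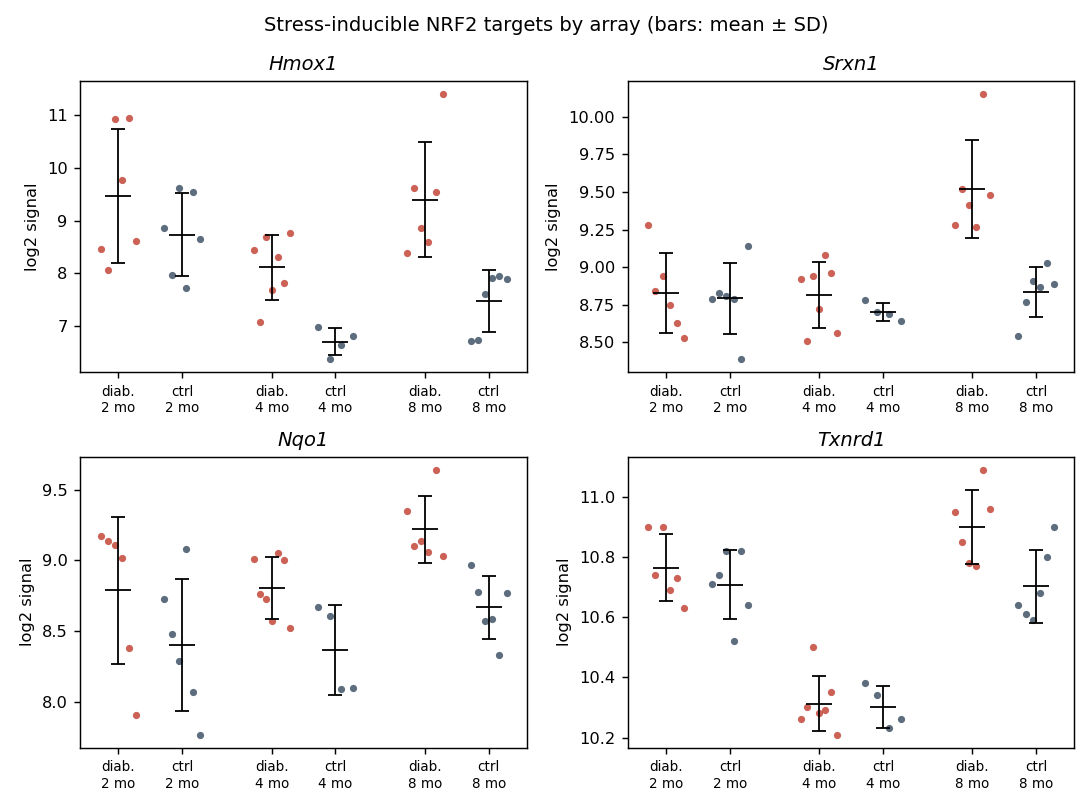
Log2 signal of Hmox1, Srxn1, Nqo1 and Txnrd1 on each array, diabetic left of control at each age, with bars for the mean ± SD. At 8 months the diabetic and control points of Hmox1, Srxn1 and Nqo1 are fully apart, and diabetic array 5 at 10.15 stands above the other Srxn1 points.

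The genes for glutathione synthesis and the constitutive enzymes passed the test at no age. Gclc, the catalytic subunit of glutamate-cysteine ligase, had differences of -0.09 ± 0.15, -0.34 ± 0.17 and -0.10 ± 0.15 at 2, 4 and 8 months. At 4 months it ran from 10.82 to 11.41 on diabetic arrays, with 11.36, 11.12, 11.9 and 11.53 on control arrays (adjusted p = 0.453, limma). Gclm, the modifier subunit of the same enzyme, differed by -0.08 ± 0.07, 0.10 ± 0.08 and 0.07 ± 0.07. The second Gclc probe set gave -0.12 ± 0.14, -0.15 ± 0.15 and -0.14 ± 0.14, and the second Gclm probe set 0.05 ± 0.10, -0.02 ± 0.11 and -0.14 ± 0.10, of the opposite sign to the brighter one at each age, none of them called. The 95% interval of the brighter probe set at 8 months was -0.07 to 0.22 for Gclm and -0.42 to 0.21 for Gclc.

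Sod1, the copper-zinc superoxide dismutase, gave negative differences at each age, -0.46 ± 0.15 at 2 months (adjusted p = 0.0963), -0.25 ± 0.16 at 4 months (adjusted p = 0.627) and -0.23 ± 0.15 at 8 months (adjusted p = 0.326). At 2 months it read 12.27, 12.08, 12.18, 12.08, 11.31 and 10.94 on diabetic arrays 1 to 6, against 12.42, 12.38, 12.32, 12.2, 11.79 and 12.52 on controls 1 to 6. The low diabetic arrays 5 and 6 were those on which Mt1 and Mt2 were low. Without arrays 5 and 6 of both groups the Sod1 difference was -0.18 ± 0.09 (adjusted p = 0.312), over those 4 arrays alone it was -1.02 ± 0.17 (adjusted p = 0.00267), and with them as a batch term it was -0.46 ± 0.11 (adjusted p = 0.0151). It was also called without diabetic array 1 (-0.55 ± 0.15, adjusted p = 0.0417) and without control array 5 (-0.56 ± 0.15, adjusted p = 0.0281), and without control 6 it was -0.41 ± 0.16 (adjusted p = 0.143). Of the 4 other Sod1 probe sets, 3 above the filter had negative differences at each age and the dimmest, below it, had 0.05, 0.03 and -0.09. None was called.

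Cat, the peroxisomal catalase, differed by -0.06 ± 0.09, -0.09 ± 0.10 and -0.16 ± 0.09 at 2, 4 and 8 months. At 8 months it ran from 11.74 to 12.14, with a median of 11.9, on diabetic arrays and from 11.95 to 12.34, with a median of 12.04, on control arrays (adjusted p = 0.246, limma), and the second Cat probe set gave -0.20 ± 0.10. The groups overlapped.

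**Figure D5:**
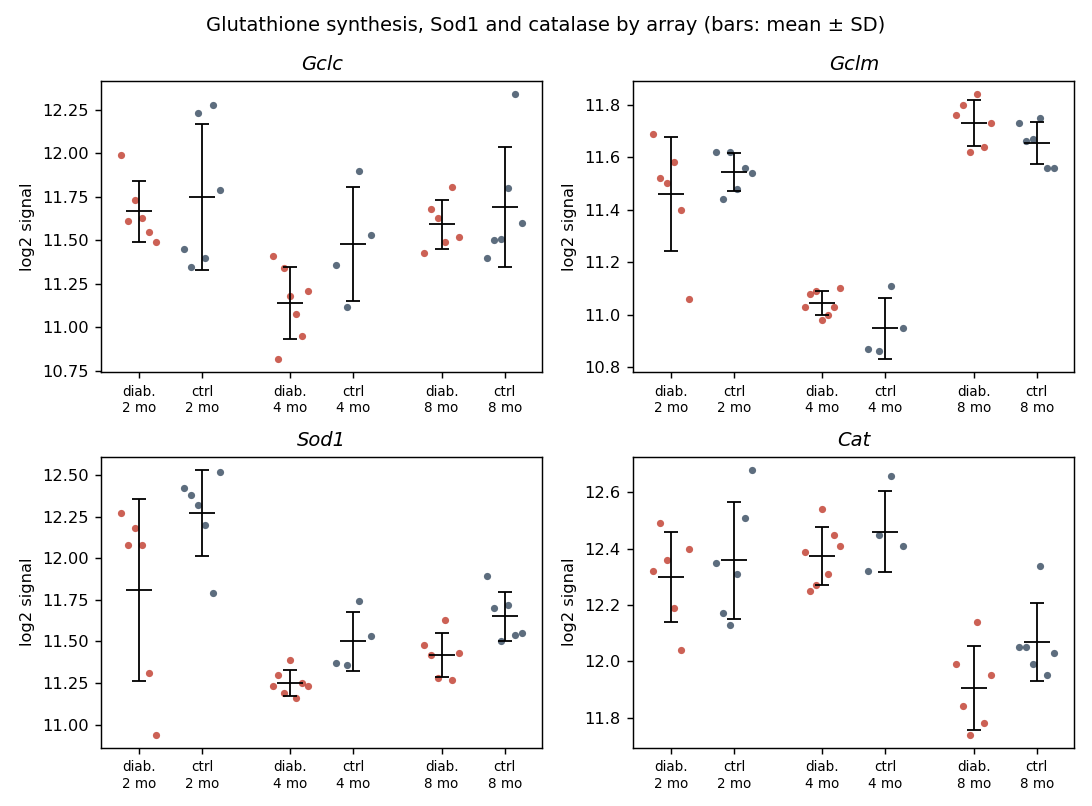
Log2 signal of Gclc, Gclm, Sod1 and Cat on each array, diabetic left of control at each age, with bars for the mean ± SD. The groups overlap in every panel at every age, and diabetic arrays 5 and 6 at 2 months are the lowest Sod1 points of that age (11.31 and 10.94).

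Whether the diabetes effect differed between ages was tested directly. Srxn1 was the 1 gene of 10 called, at 0.65 ± 0.18 larger at 8 than at 2 months (adjusted p = 0.0416, limma), with 3.89% of all genes called and 3.01% called in this direction. That call was lost in 15 of 24 fits that left out 1 array, with an adjusted p between 0.0513 and 0.0838, and without the 2-month arrays 5 and 6 (0.54, adjusted p = 0.088). Between 8 and 4 months its difference was 0.57 ± 0.19 (adjusted p = 0.167), where 0 of the 10 genes and 0.877% of all genes were called (0.738% with a larger and 0.138% with a smaller effect at 8 months), 1 of the 10 at an unadjusted p under 0.05. For Hmox1 the effect was 1.21 ± 0.65 larger at 8 than at 2 months (adjusted p = 0.346). For Mt1 and Mt2 the change in the effect between 2 and 8 months was -0.12 ± 0.28 and 0.07 ± 0.42, and between 4 and 8 months -0.35 ± 0.29 and -0.57 ± 0.44. Neither was called, so the 4-month calls of these genes are not shown to be particular to that age. Between 4 and 2 months 0 of 10 genes and 0% of all genes were called, 0 and 5.08% at an unadjusted p under 0.05.

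Of 20 other NRF2 targets measured, 4 rose at 8 months and 1 each at 2 and 4 months, and 0 fell. The share called at 8 months was 20%, against 16.8% of all genes, and 9.87% of all genes were called higher. At 2 and 4 months the share was 5% each, from 1 gene. Over all genes it was 2.54% (0.754% higher) at 2 months and 0.969% (0.415% higher) at 4 months. Ephx1, the microsomal epoxide hydrolase, rose at every age, by 0.59 ± 0.10, 0.68 ± 0.11 and 0.83 ± 0.10 (adjusted p = 0.000916, 0.00184 and 6.89e-07, limma). Without controls 3 and 4 at 4 months 0 of the 20 were called, and 0.0384% of all genes. Cbr3, a carbonyl reductase, rose by 1.40 ± 0.19 at 8 months. The pentose phosphate enzyme Pgd rose by 0.43 ± 0.13 and the glutathione transferase Gstp1 by 0.22 ± 0.07. The median over the 20 was 0.03, 0.15 and 0.13 at the 3 ages.

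Of the 10 genes that regulate NRF2, 1 passed at 8 months and 0 at the other ages. This is no more than the share of all genes called at 8 months, 16.8%, with 9.87% called higher. Maff, a small MAF partner of NRF2, rose by 1.00 ± 0.16 (adjusted p = 3.47e-05, limma), from a dim probe set with a mean of 5.78. Nfe2l2 itself differed by 0.25 ± 0.09, -0.04 ± 0.09 and 0.17 ± 0.09, and its inhibitor Keap1 by -0.13 ± 0.08, -0.07 ± 0.09 and 0.07 ± 0.08, none of them called.

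Of 35 redox genes outside the set 6 were called at 8 months, or 17.1%, near the 16.8% of all genes. Of 8 other glutathione enzymes 1 rose at 8 months, the glutaredoxin Glrx, by 0.58 ± 0.12. Of 8 thioredoxin and peroxiredoxin genes 1 fell, Txnrd3, by 0.44 ± 0.12. Of 7 genes of the other superoxide dismutases and copper supply 2 rose, the copper chaperone Atox1 (0.31 ± 0.10) and the copper pump Atp7a (0.27 ± 0.08). Of 12 peroxisome genes Pex11a rose (0.45 ± 0.15) and Pxmp2 fell (-0.41 ± 0.11). None of these genes was called at 2 or 4 months.

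Of 6 other metal response genes measured, 2 were called, both at 8 months. Over all genes 16.8% were called at that age, 9.87% higher and 6.95% lower. Slc30a1, the zinc exporter and a target of MTF1, rose by 0.25 ± 0.09 at 8 months (adjusted p = 0.0481, limma), and Mt3 fell by 0.53 ± 0.09 (adjusted p = 6.6e-05), from a dim probe set with a mean of 5.95. Mtf1 itself differed by 0.01, 0.03 and 0.05. Of 9 heme and iron genes the iron exporter Slc40a1 rose at 8 months (0.40 ± 0.13), and Hmox2, the constitutive heme oxygenase, differed by -0.16, 0.02 and -0.08. Of 9 glucocorticoid targets 0 were called at any age by limma. At an unadjusted p under 0.05 it was 0, 1 and 3 of them, against 15.2%, 11.4% and 28.6% of all genes. The median difference of the 9 glucocorticoid targets was 0.15, 0.40 and 0.33, and at 4 months -0.32 without controls 3 and 4.

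Markers of other cell types were called at 8 months, and a few of them earlier. Over all genes 9.87% were called higher and 6.95% lower at 8 months. At 2 months 0.754% were called higher and 1.78% lower, and at 4 months 0.415% and 0.554%. Of 11 macrophage genes measured 10 rose at 8 months, with a median of 1.57, and 0 were called at 2 or 4 months. At an unadjusted p under 0.05 it was 1 and 4 of them, against 15.2% and 11.4% of all genes. Their summed signal ran from 12.61 to 14.15 log2 units on diabetic and from 11.93 to 12.26 on control arrays at 8 months. No marker reads 0 on these arrays, Csf1r stood at -0.11 (adjusted p = 0.463), and Itgam was below the filter. Each diabetic array at 8 months was above every control array in the macrophage sum, in Hmox1 and in Srxn1. Among the 6 diabetic arrays, array 3 had the highest macrophage sum and ranked below arrays 2, 5 and 6 for Hmox1. Arrays 5 and 6, the highest for Srxn1 and Hmox1, had macrophage sums of 12.61 and 12.85, among the 3 lowest of the 6. The relation of the macrophage sum to these genes was not tested. All 7 injured tubule genes measured rose at 8 months, and Krt18 rose at 4 months (0.60 ± 0.14, adjusted p = 0.0204, limma). Without controls 3 and 4, 0 of them were called at 4 months, and 0.0384% of all genes. Of 12 proximal tubule genes 8 fell at 8 months, with summed signals from 15.96 to 16.53 on diabetic and from 16.64 to 16.68 on control arrays, and so did 6 of 7 genes of the thick ascending limb. Of 8 distal and collecting duct genes 3 fell and 2 rose at 8 months, and of 6 podocyte genes 2 fell, while 0 of the 2 erythroid genes measured were called. At 2 months 2 of the thick ascending limb genes were lower, Umod (-0.19 ± 0.05, adjusted p = 0.0421) and Ptger3 (-0.58 ± 0.15, adjusted p = 0.0285), and 1 of the 7 was lower without arrays 5 and 6. At 4 months the collecting duct gene Slc26a4 (-0.51 ± 0.11, adjusted p = 0.017) and the podocyte gene Thsd7a (-0.59 ± 0.15, adjusted p = 0.0415) were lower. In the fit without controls 3 and 4, which called 0.0384% of all genes, 0 genes of these lists were called. Of 12 clock genes 2 were called at 8 months, near the 16.8% of all genes. Per3 (-0.76 ± 0.22) and Tef (-0.42 ± 0.14) fell. Fewer cells of a type and less RNA per cell cannot be told apart in whole-kidney RNA, and the part of these shifts in the enzyme differences was not tested. The proximal tubule markers were bright on every array, with a summed signal of 15.96 log2 units or more.

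The genes most like each member over the 35 arrays, after each age's mean was subtracted, were Mt2 (r = 0.969), Tmem82 (0.889) and Slc26a6 (0.858) for Mt1, with Tmem82 (0.868) and Rab30 (0.812) next to Mt1 for Mt2. For Srxn1 they were Pvt1 (0.851), Cbr3 (0.85) and Aars (0.849), and for Hmox1 Zfp991 (0.705), Kctd17 (0.701) and Rangap1 (0.692). Nqo1 was most like Gsto1 (0.892), Slc23a3 (0.886) and Reep6 (0.861), and Txnrd1 like Utp4 (0.771), Ftsj3 (0.744) and Gnl3 (0.738). Gclc was most like Fndc3a (0.689), Socs2 (0.684) and Itga6 (0.669), and Gclm like Ptk2b (0.696), Zfp688 (0.677) and Smarcc1 (0.644). Sod1 was most like Slc35a1 (0.893), Os9 (0.892) and Rps6 (0.87), and Cat like Cltrn (0.821), Cryz (0.81) and Atp5pb (0.786). These correlations are over arrays that share the group differences and the arrays that stand apart, and they describe likeness only.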

How the data were processed

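RNA from 35 whole-kidney samples was extracted with TRIzol, and 5 ug of total RNA was made into biotin-labelled cRNA for hybridisation, per the labels' protocols. The deposited values are log2 probe set signals, as their range shows; how they were background-corrected, summarized and normalized is not given in the sources used here. Array means were nearly equal within an age and differed between ages (6.43 to 6.44, 6.02 to 6.04 and 6.54), so differences were taken within an age. The number of arrays, not depth, limits the precision.

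Of 45101 probe sets 34945 name 1 gene in the platform annotation, 932 several and 9160 none, and 64 are controls. Each gene took its brightest probe set, and 13004 genes stood at or above 5.273 on average, the 40th percentile of probe set means. Group means over all arrays were fitted in R 4.3.3 with limma 3.58.1 (29 residual degrees of freedom, 33.7 after moderation), with two-sided tests adjusted by Benjamini and Hochberg. The fit was also run on simulated data with independent noise for each gene and no arrays that stand apart, so that run does not bear on such arrays. Errors of differences are standard errors.

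All 10 genes are named with every probe set. Of each other list up to 4 genes with the smallest p among those called are named, and 3 most similar genes for each member. Nfe2l2, Keap1, Mtf1, Hmox2 and Csf1r were named outside this rule, after their values were seen. Alternatives were other normalizations, probe set rules, filters, array weights, a replicate block, a clock covariate and fits without single arrays or those that stand apart. The members and lists were chosen with earlier results of these data known. Of same-numbered diabetic and control arrays, 6 of 6 correlated above 0.1 at 2 months after group means were removed (r 0.246 to 0.444). At 4 months it was 1 of 4 (0.0484 to 0.177) and at 8 months 2 of 6 (-0.142 to 0.233). Arrays 5 and 6 of both groups stood apart at 2 months, so these correlations do not show that the numbers are pairs.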

Additional observations from a re-analysis of the deposited data

Results flagged for a closer look

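Among the 10 genes, 60 groups of arrays were checked for a single distant array and 2 had one, where chance gives about 1 in 20. Diabetic array 5 at 8 months had an Srxn1 signal of 10.15, with the other 5 diabetic arrays between 9.27 and 9.52. Control array 4 at 8 months had a Cat signal of 12.34, with the other 5 control arrays between 11.95 and 12.05. Without the first, the Srxn1 difference at 8 months was still called, and without the second the Cat difference was not called.

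The diabetes effect differed between ages, by a test of the difference itself in the limma fit, for the following named genes; values are log2 and are the effect at 8 months minus that at the earlier age. Against 2 months, Srxn1 was 0.65 ± 0.18, the small MAF gene Maff 0.91 ± 0.23, and Cbr3 1.48 ± 0.26. Mt3 was -0.49 ± 0.13 against 2 months and -0.61 ± 0.14 against 4 months.

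The tubular injury genes had the largest such values. Lcn2 was 4.20 ± 0.49 against 2 months and 3.36 ± 0.51 against 4 months, Cd44 was 3.03 ± 0.37 and 2.50 ± 0.39, and Havcr1 was 3.06 ± 0.39 and 2.31 ± 0.41. Krt18 was 1.04 ± 0.18 against 2 months. Of the macrophage genes, Lyz2 was 2.65 ± 0.33 against 2 months and 1.83 ± 0.34 against 4 months, Cd68 2.19 ± 0.30 and 1.98 ± 0.32, Ms4a7 2.16 ± 0.27 and 1.33 ± 0.29, and Fcgr3 1.53 ± 0.28 and 1.38 ± 0.30. Some nephron segment and podocyte genes were called with a lower effect at 8 than at 2 months, against 0.877% of all genes, and 0 with a higher effect. They were 1 of 12 proximal tubule genes (Slc5a2, -0.69 ± 0.13) and 1 of 7 of the thick ascending limb (Egf, -0.63 ± 0.14). To these come 1 of 8 distal and collecting duct genes (Slc12a3, -0.58 ± 0.17) and 2 of 6 podocyte genes (Nphs1, -0.82 ± 0.18, and Ptpro, -0.54 ± 0.13). In these 4 lists 0, 2, 4 and 2 genes had a positive change, not called.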

How the results depend on the processing

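Hmox1 and Srxn1 at 8 months were called under all 11 other settings tried, at 1.91 to 1.94 and 0.47 to 0.68, and under each of the 12 fits that left out 1 array. Of the 10 genes the number called moved as follows. At 2 months, where 0 were called, it was 1 with quantile normalization, with the replicate block and with the clock covariate, 2 with array weights, without arrays 5 and 6 and with these as a batch term, and 1 with those 4 arrays alone, a setting chosen after seeing the data. At 4 months, where 2 were called, it was 1 with median centring, with the mean of all probe sets, with no filter and with the trend and robust options, 0 in the fit over every probe set, with the clock covariate and without controls 3 and 4, and 3 with each age alone and with array weights. At 8 months, where 4 were called, it was 2 with median centring and in the fit over every probe set, 3 with the mean of all probe sets and with no filter, 5 with quantile normalization, with each age alone and with the clock covariate, and 6 with array weights and with the replicate block. The genes behind these 8-month counts were not the same throughout. Txnrd1 was called under 4 of the 11 settings (adjusted p from 0.0268 to 0.243, limma). Nqo1 was called under 9 of them, and Mt1 and Mt2 under 5 each. For the change of the effect between 2 and 8 months, where 1 was called, it was 0 with median centring, with the mean of all probe sets, in the fit over every probe set and without the 2-month arrays 5 and 6. Leaving out 1 array at a time gave 0 to 2, 0 to 2 and 2 to 4 called at 2, 4 and 8 months, and 0 to 1 for the change between 2 and 8 months. The fit over every probe set tests more features, and those without arrays rest on fewer samples; for the other settings the cause was not tested.

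Over all genes the share called ranged over these settings from 0.492% to 9.97% at 2 months, 0.0384% to 7.24% at 4 months and 9.69% to 20.9% at 8 months, the highest with array weights. For changes between ages it was 1.75% to 8.6% (8 minus 2 months), 0.108% to 3.52% (8 minus 4) and 0% to 0.469% (4 minus 2). The replicate block added Mt1 at 2 months, and at 8 months Mt2 (adjusted p = 0.0212) and Mt1 (adjusted p = 0.0406). Its numbers are not shown to be pairs at any age. In the fits of single effects 22 of 720 values changed sign and in those of changes between ages 64 of 1080, all of them called under neither setting. The largest was Mt2 at 2 months, at 0.70 over all arrays and -0.18 over arrays 5 and 6 alone.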
